A study of Mus musculus with 10 samples.

Results

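Endothelial cells line blood vessels, and 10 genes that mark them were followed in mouse WEHI-164 tumors that later did or did not respond to a poly(I:C) hydrogel: Pecam1, Cdh5, Kdr, Flt1, Tek, Tie1, Vwf, Emcn, Eng and Esam. They were chosen by symbol, as the 10 rows of the count table that carry these names, out of 35958 features. The vessel wall is built around homophilic junction proteins, VE-cadherin (Cdh5), PECAM-1 (Pecam1) and ESAM (Esam). Growth and survival signals reach it through the VEGF receptors VEGFR1 (Flt1) and VEGFR2 (Kdr), through TIE2 (Tek), the receptor of the angiopoietins, with its partner TIE1 (Tie1), and through endoglin (Eng), a coreceptor for BMP and TGF-β ligands. Endomucin (Emcn) is a sialomucin of capillaries and veins, and von Willebrand factor (Vwf) is stored in endothelial granules and catches platelets. Growing tumors recruit vessels from the host. Host and sarcoma RNA were not separated here, and several of the 10 transcripts are shared with blood cells or fibroblasts: platelets and leukocytes also make Pecam1, megakaryocytes make Vwf, monocytes make Flt1, and fibroblasts and macrophages make Eng.

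WEHI-164 is a fibrosarcoma line of BALB/c origin, grown subcutaneously in wild-type (WT) adult female BALB/c mice. Part of each tumor was resected, placed in RNAlater and sequenced as polyA RNA, and the poly(I:C) hydrogel was put on the residual tumor afterward, so every sequenced piece was untreated. Mice whose tumors regressed completely were responders (RS, n = 5, tumors 5, 9, 10, 11 and 12), and mice whose tumors grew without delay were non-responders (NR, n = 5, tumors 1, 2, 3, 6 and 7). All 10 tumors came from separate mice, and each group is defined by what happened after sampling, so the comparison asks whether vessel genes in the untreated tumor differed with later outcome. Depth ran from 16002949 to 31160790 estimated counts in responders (median 25627675) and from 19863863 to 28276142 in non-responders (median 22757833). The labels name no batch and do not say what the tumor numbers stand for. Responder 5 is numbered among the non-responders and the other 4 responders carry the highest numbers. In bulk tumor RNA, fewer endothelial cells and less RNA per endothelial cell cannot be told apart.

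The label of fibrosarcoma was set beside marker genes. Vimentin (Vim), the mesenchymal intermediate filament, had the highest CPM of 10 fibroblast and sarcoma genes (the sense in which the most abundant gene of a list is meant throughout), at 4860 ± 425 CPM (counts scaled to library size, with trimmed mean of M-values, TMM, normalization, as mean ± SD, n = 5) in responders and 4662 ± 363 in non-responders. All 10 passed the filter, and the lowest was Fap, at 2.29 ± 0.307 and 2.54 ± 0.510 CPM. Among 8 keratinocyte genes, Krt1 was listed at 0 in all 10 tumors, while Krt10 (3.1 ± 0.362 CPM in responders), Sfn (3.19 ± 0.547) and Trp63 (3.23 ± 0.902) passed the filter. Muscle and fat transcripts were present too, with Acta1 at 52.9 ± 27.8 and Fabp4 at 20.9 ± 4.58 CPM in responders and 61.8 ± 20.4 and 22 ± 6.72 in non-responders. All 10 endothelial genes passed the filter on low counts, and together they summed to 290.3 ± 16.9 CPM in responders and 318.6 ± 22.6 in non-responders. The lowest sum was 269.7 CPM in responder 11 and the highest was 341.5 CPM in non-responder 6. Responders 5 and 12, at 316.7 and 290.0 CPM, were above the lowest non-responder, tumor 7, whose sum was 288.5 CPM.

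Endothelial transcripts were lower on average in the tumors that later responded, by small amounts that no single gene carried past the adjusted threshold. Of the 10 genes, 9 had a lower mean in responders and 1, Pecam1, a higher mean. Their median log2 fold change (responder minus non-responder) was -0.20, against a median near 0 (-0.0036) over all features, of which 51.4% had a lower mean in responders. None of the 10 was called by edgeR's quasi-likelihood test at a Benjamini-Hochberg adjusted p under 0.05, and 0% of the 15767 features tested were called. Without adjustment, 1295 features had a p under 0.05. DESeq2's Wald test called 1 feature outside the list, the collagen gene Col6a2, and limma-voom called 0. At an unadjusted p under 0.05, 5 of the 10 genes (Flt1, Esam, Cdh5, Tie1 and Kdr) were on the lower side, where 4.0% of all features stood, and 0 were on the higher side, where 4.21% stood. Tie1, Esam, Flt1 and Kdr followed Cdh5 over the 10 tumors (Pearson's r from 0.812 to 0.961), so these genes are not separate observations. For 4 genes (Flt1, Esam, Cdh5 and Tie1), 4 of 5 responders lay below every non-responder, an arrangement that at least 4 of 5 responders reached for 3.67% of all features. No gene of the 10 had all 5 responders below every non-responder.

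**Figure D1:**
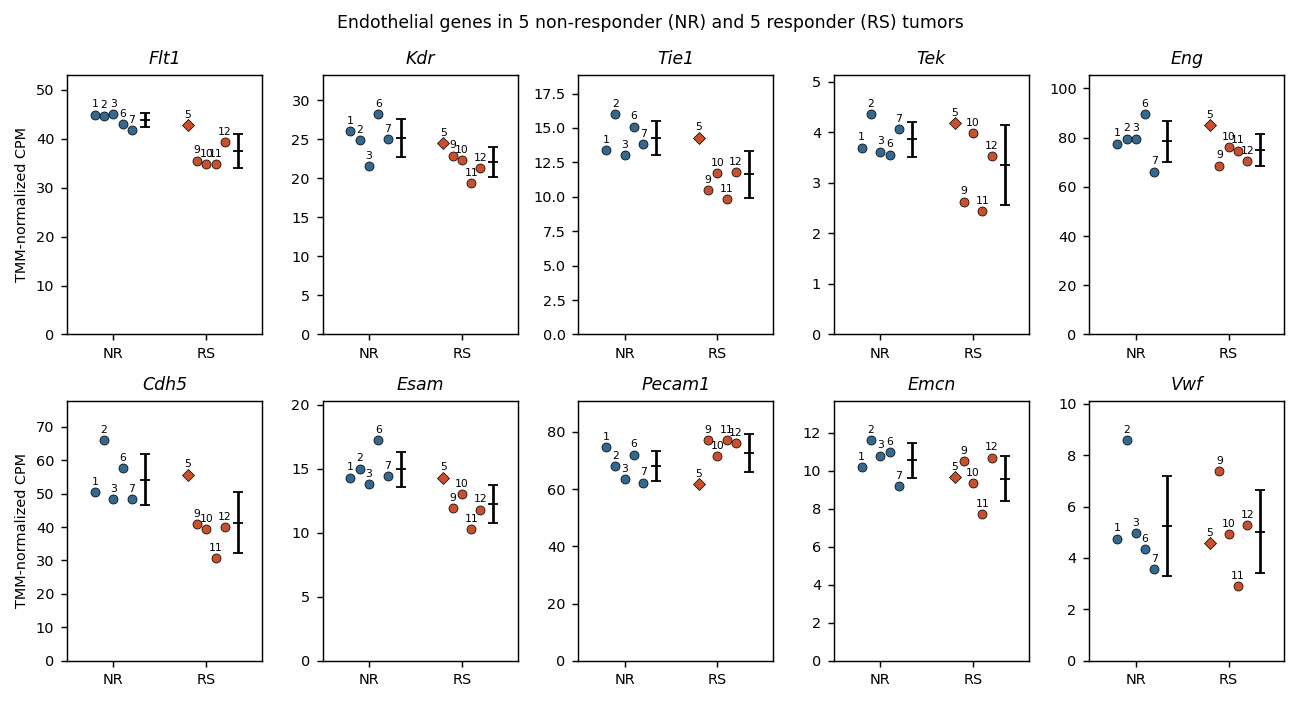
Level of each of the 10 endothelial genes in every tumor, in TMM-normalized CPM on axes that start at 0, for non-responders (NR, blue) and responders (RS, red, with responder 5 as a diamond). Small figures are tumor numbers and the bars are mean ± SD (n = 5). In Flt1, Esam, Cdh5 and Tie1 the diamond sits with the blue points and the other 4 red points sit below all of them.

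Of the 10 genes, 4 encode receptor tyrosine kinases. Flt1 (chr5:147561604-147726011, minus strand, GRCm38), which binds VEGF-A and also exists as a soluble decoy, stood at 44.9, 44.7, 45.0, 42.9 and 41.8 CPM in non-responders 1, 2, 3, 6 and 7. It stood at 42.7, 35.5, 34.8, 34.8 and 39.3 CPM in responders 5, 9, 10, 11 and 12. Responders 9, 10, 11 and 12 were below every non-responder, while responder 5 lay between non-responders 7 and 6. The means were 37.4 ± 3.49 and 43.9 ± 1.46 CPM, a log2 fold change of -0.23 with a standard error (SE) of 0.06 and an edgeR adjusted p of 0.580.

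Kdr (chr5:75932827-75978458, minus strand), the main signaling receptor for VEGF-A, had 26.0, 24.9, 21.6, 28.2 and 25.0 CPM in non-responders 1, 2, 3, 6 and 7. Its responder values were 24.5, 22.9, 22.3, 19.4 and 21.3 CPM in tumors 5, 9, 10, 11 and 12. The groups overlapped, with only responders 11 and 12 below the lowest non-responder. The log2 fold change was -0.19 (SE 0.08, edgeR adjusted p = 0.591).

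Tie1 (chr4:118471191-118490061, minus strand), an orphan receptor that modulates TIE2 signaling, had 13.4, 16.0, 13.0, 15.1 and 13.8 CPM in non-responders 1, 2, 3, 6 and 7. It had 14.3, 10.5, 11.7, 9.85 and 11.8 CPM in responders 5, 9, 10, 11 and 12. As with Flt1, responder 5 was inside the non-responder range and the other 4 responders were below it. The log2 fold change was -0.29 (SE 0.10, edgeR adjusted p = 0.580).

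Tek (chr4:94739289-94874976, plus strand), which encodes TIE2, had 42 to 122 counts per tumor. Its means were 3.36 ± 0.793 CPM in responders and 3.86 ± 0.340 in non-responders. Responders 9 and 11, at 2.63 and 2.44 CPM, were lowest and responder 12, at 3.53 CPM, was just below the non-responders. The groups otherwise overlapped, and the difference of the means (log2 fold change -0.20, SE 0.16, edgeR adjusted p = 0.754) was smaller than the spread within the responders. Leaving out single tumors gave values from -0.30 (without responder 5) to -0.10 (without responder 11).

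The promoters of these 4 kinases are shown because 3 of the 4 genes had an unadjusted p under 0.05 on the same side, and because ETS transcription factors, which recognize a GGAA core, are established regulators of endothelial genes. The sequences are the 250 bases before the start of transcription from RefSeq on GRCm38.p6, written 5′ to 3′ on the strand of the gene, and capitals mark AGGAAG or, on the opposite strand, CTTCCT.
Flt1 (chr5:147726012-147726261, minus strand): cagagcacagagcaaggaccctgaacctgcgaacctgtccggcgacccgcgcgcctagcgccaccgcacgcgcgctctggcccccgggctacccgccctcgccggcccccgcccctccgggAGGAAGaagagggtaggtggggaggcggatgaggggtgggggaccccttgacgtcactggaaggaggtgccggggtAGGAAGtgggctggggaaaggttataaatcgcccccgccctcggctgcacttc
Kdr (chr5:75978456-75978705, minus strand): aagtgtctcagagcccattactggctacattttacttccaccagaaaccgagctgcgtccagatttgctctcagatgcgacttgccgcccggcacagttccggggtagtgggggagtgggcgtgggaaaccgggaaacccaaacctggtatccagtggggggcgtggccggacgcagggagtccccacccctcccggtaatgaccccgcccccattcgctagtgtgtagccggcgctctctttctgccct
Tie1 (chr4:118489850-118490099, minus strand): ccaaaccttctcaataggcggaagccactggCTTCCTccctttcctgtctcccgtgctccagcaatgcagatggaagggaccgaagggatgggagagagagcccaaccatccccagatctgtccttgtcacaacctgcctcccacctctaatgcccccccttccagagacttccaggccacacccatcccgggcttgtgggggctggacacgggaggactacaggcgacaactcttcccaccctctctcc
Tek (chr4:94739039-94739288, plus strand): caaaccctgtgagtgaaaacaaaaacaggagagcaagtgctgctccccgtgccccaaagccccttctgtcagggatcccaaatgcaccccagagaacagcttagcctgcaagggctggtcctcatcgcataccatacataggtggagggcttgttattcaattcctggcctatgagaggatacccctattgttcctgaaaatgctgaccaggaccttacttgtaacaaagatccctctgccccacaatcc
AGGAAG was found on the printed strand of Flt1, with matches starting 129 and 53 bases before the start site, and on the opposite strand of Tie1, 219 bases before it. Neither Kdr nor Tek held these letters in the window, though both hold the shorter GGAA core or its reverse, TTCC, which was not marked or counted. RefSeq promoters were matched for 6 of the 10 genes (Eng, Emcn, Tek, Tie1, Kdr and Flt1), and 4 of the 6 held the motif on either strand, as did 29.5% of 32851 mouse promoters of the same length. A match describes the sequence and does not show that a factor binds there.

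Eng (chr2:32646595-32682669, plus strand), the coreceptor, stood at 75.0 ± 6.46 CPM in responders and 78.5 ± 8.30 in non-responders, and no responder lay below or above every non-responder (log2 fold change -0.06, SE 0.08, edgeR adjusted p = 0.854). Responder 5 (85.2 CPM) and non-responder 6 (89.5 CPM) were highest and non-responder 7 (66.2 CPM) was lowest. The fold change was -0.01 without non-responder 6, -0.03 without responder 9, -0.11 without responder 5 and -0.12 without non-responder 7. The annotation places Fpgs on the opposite strand within its span, and the strand setting of the counting is not given in the sources used here.

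Among the junction genes, Cdh5 (chr8:104101625-104144511, plus strand), whose VE-cadherin holds endothelial cells together and is the most restricted endothelial marker of the 10, showed the largest log2 difference of the 10. Non-responders 1, 2, 3, 6 and 7 had 50.4, 65.9, 48.4, 57.7 and 48.3 CPM. Responders 5, 9, 10, 11 and 12 had 55.7, 40.8, 39.4, 30.6 and 40.1 CPM. Responder 5 was above 3 of the non-responders, and the other 4 responders were below all 5, with responder 11 lowest. The antisense gene Gm29682 overlaps Cdh5 on the opposite strand, so its reads may be included. The means of 41.3 ± 9.03 and 54.1 ± 7.60 CPM differed by a log2 fold change of -0.39 (SE 0.14, edgeR adjusted p = 0.580).

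Esam (chr9:37528078-37538319, plus strand), a tight junction adhesion molecule of endothelium and platelets, had 14.3, 15.0, 13.8, 17.2 and 14.4 CPM in non-responders 1, 2, 3, 6 and 7. It had 14.3, 11.9, 13.0, 10.3 and 11.8 CPM in responders 5, 9, 10, 11 and 12. The 4 responders other than tumor 5 were again below every non-responder. The log2 fold change was -0.29 (SE 0.09, edgeR adjusted p = 0.580).

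Pecam1 (chr11:106654217-106750628, minus strand), which guides leukocytes across the vessel wall and is also carried by leukocytes and platelets, was the exception in direction. It had 74.7, 68.1, 63.4, 72.1 and 62.3 CPM in non-responders 1, 2, 3, 6 and 7. It had 61.7, 77.0, 71.6, 77.0 and 76.0 CPM in responders 5, 9, 10, 11 and 12. Responder 5 was the lowest of all 10 tumors, whereas responders 9, 11 and 12 were above every non-responder. The log2 fold change was 0.09 (SE 0.07, edgeR adjusted p = 0.751), and 0.15 without responder 5.

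The 2 remaining genes, products of the luminal surface and of endothelial granules, overlapped between groups. Emcn (chr3:137341067-137432185, plus strand) stood at 9.59 ± 1.17 CPM in responders and 10.6 ± 0.911 in non-responders (log2 fold change -0.14, SE 0.10, edgeR adjusted p = 0.723), with responder 11 lowest at 7.74 CPM, and the fold change was -0.07 without that tumor. Vwf (chr6:125546774-125686679, plus strand) was the most uneven of the 10 genes, with a coefficient of variation of 32.9% over the 10 tumors and 89 to 240 counts per tumor. Its means were 5.01 ± 1.61 and 5.24 ± 1.94 CPM in responders and non-responders (log2 fold change -0.09, SE 0.26, edgeR adjusted p = 0.952). Its highest value, 8.57 CPM, was in non-responder 2 and its lowest, 2.89 CPM, in responder 11, and the sign of the difference turned without either of these tumors (0.17 and 0.07).

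**Figure D2:**
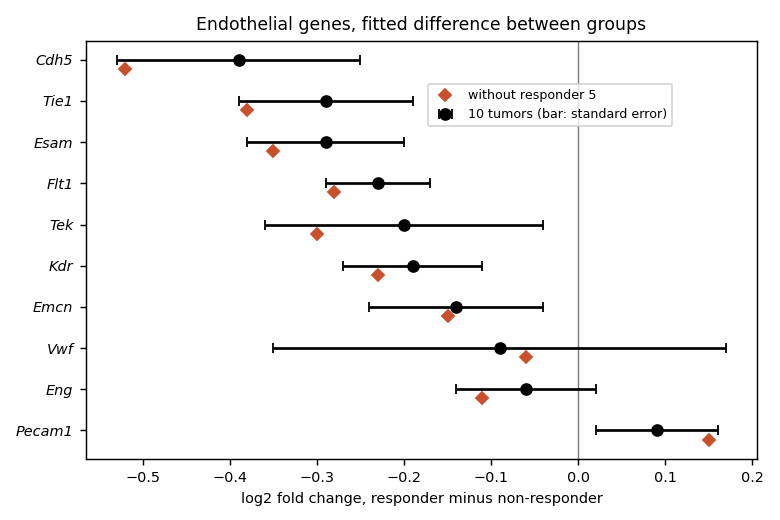
Fitted log2 fold change (responder minus non-responder, horizontal axis) of each endothelial gene over 10 tumors (black, bar: SE) and without responder 5 (red diamonds). The black points run from -0.39 for Cdh5 to 0.09 for Pecam1, the only point above 0.

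Spread between tumors differed among the genes. The coefficient of variation over 10 tumors was 8.70% for Pecam1, 9.45% for Eng, 10.4% for Flt1, 10.9% for Kdr and 11% for Emcn. It was 14.4% for Esam, 15.2% for Tie1, 17.6% for Tek and 21.7% for Cdh5. The median biological coefficient of variation within groups was 10.7% over the 10 genes and 9.29% over all features.

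Responder 5 had the highest level of the 5 responders in all 5 genes with an unadjusted p under 0.05. It is singled out, here and for the lists below, by its values in these same genes. Leaving it out therefore widens the differences of these 5 genes by construction, and the smaller p values are no separate evidence. Taking the median over the 10 genes of each tumor's deviation from the gene's mean on the log2 scale, responder 5 was at 0.08, beside 0.03 to 0.17 in the non-responders. Responders 9, 10, 11 and 12 were at -0.16, -0.06, -0.34 and -0.08. Without responder 5, the log2 fold change was -0.52 for Cdh5 (edgeR adjusted p = 0.0779), -0.28 for Flt1 (edgeR adjusted p = 0.0738), -0.38 for Tie1 (edgeR adjusted p = 0.103) and -0.35 for Esam (edgeR adjusted p = 0.126). Still 0 of the 10 genes passed the adjusted threshold, which 9 of 15695 features (0.0573%) did. At an unadjusted p under 0.05, the same 5 genes were on the lower side, where 6.79% of features then stood, and Pecam1 was on the higher side, where 6.85% stood. Leaving out responder 11, the tumor with the lowest level of 7 of the 10 genes, brought the median log2 fold change of the list from -0.20 to -0.12. The values were then -0.29 for Cdh5 and -0.20 for Flt1 (edgeR adjusted p = 0.879 for each).

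Levels of the genes themselves were compared per kilobase of annotated exon, because a long transcript gathers more counts at the same abundance. On that scale Eng was highest at 19.0 ± 1.79 CPM per kb (SD, n = 10), above Cdh5 in 10 of 10 tumors. Cdh5 at 11.4 ± 2.47 and Pecam1 at 11.3 ± 0.983 CPM per kb did not differ beyond their spread, with Cdh5 higher in 6 of 10 tumors. Esam followed at 4.74 ± 0.681 and Flt1 at 3.01 ± 0.313 CPM per kb. Flt1 was above Tie1 in 10 of 10 tumors, by 0.20 ± 0.12 on the log2 scale. Tie1 at 2.63 ± 0.400 and Kdr at 2.61 ± 0.286 CPM per kb could not be ordered, with Tie1 higher in 5 of 10 tumors. Emcn (1.86 ± 0.206), Tek (0.766 ± 0.134) and Vwf (0.319 ± 0.105 CPM per kb) were lowest, each below the preceding gene in 10 of 10 tumors. Divided by the longest annotated transcript instead, Pecam1 stood at 20.5 CPM per kb, above Cdh5 at 11.9, and Kdr at 3.99 was above Tie1 at 3.06. Flt1, at 5.89 CPM per kb, was then farther above Tie1.

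**Figure D3:**
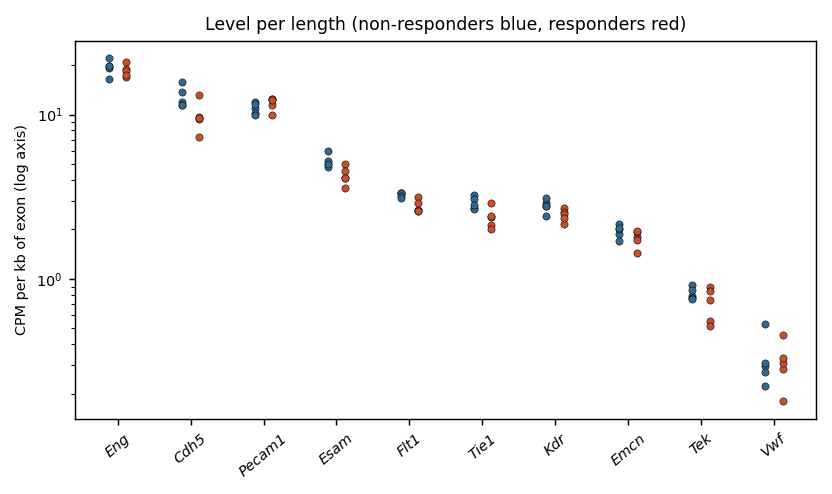
Level of each endothelial gene per kilobase of annotated exon (CPM per kb, logarithmic axis), with 1 point per tumor (non-responders blue, responders red). Eng is highest at a mean of 19.0 and Vwf lowest at 0.319 CPM per kb.

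Of 22 angiogenic ligands, which include Notch, ephrin and apelin ligands besides those of the VEGF and TIE2 receptors, 19 passed the filter, and 12 had a lower and 7 a higher mean in responders. Their median log2 fold change was -0.06, with values from -0.10 (without non-responder 7) to -0.02 (without responder 11) when single tumors were left out. Of the 8 VEGF family and angiopoietin ligands among them, 6 had a higher mean (Vegfa, Vegfb, Vegfc, Vegfd, Pgf and Angpt2) and 2 a lower mean (Angpt1 and Angpt4). None was called after adjustment, and 2 of the 19, both on the lower side, had a p under 0.05 before it, as did 4.0% of all features on that side. Vegfa, the ligand of Flt1 and Kdr, stood at 378.4 ± 52.6 CPM in responders and 364.8 ± 37.1 in non-responders (log2 fold change 0.05, SE 0.09, edgeR adjusted p = 0.910). Without responder 5 its log2 fold change was 0.12. The TIE2 agonist Angpt1 had a log2 fold change of -0.12 (SE 0.10) and Angpt2, which can oppose it, of 0.07 (SE 0.08). Dll4, the Notch ligand of sprouting tip cells, stood at 11.7 ± 1.35 and 12.2 ± 1.08 CPM. Angptl2, the most abundant gene of the list, had a log2 fold change of -0.02. Angpt4, with under 1 CPM in either mean, and the Notch ligand Jag2 had values of -0.68 (SE 0.31) and -0.32 (SE 0.16).

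Efnb2, the arterial ephrin, was the ligand with the smallest p. It had 161.0, 178.4, 171.1, 178.6 and 167.0 CPM in non-responders 1, 2, 3, 6 and 7. It had 160.9, 127.3, 147.4, 115.3 and 148.0 CPM in responders 5, 9, 10, 11 and 12. All 5 responders were below every non-responder, an arrangement found in 0.590% of all features, although responder 5 and non-responder 1 were nearly level. The log2 fold change was -0.29 (SE 0.08, edgeR adjusted p = 0.580).

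Among the other receptors and coreceptors the balance was toward lower means. All 19 genes passed the filter, 17 had a lower and 2 a higher mean in responders, and the median log2 fold change was -0.11. The median was -0.05 without responder 11 and -0.07 without non-responder 2. None passed the adjusted threshold and 2 had an unadjusted p under 0.05, Flt4 and Calcrl, both on the lower side, where 4.0% of all features stood. Without responder 5 these counts were 6 lower and 1 higher, beside 6.79% and 6.85% of all features. Flt4, the VEGF-C receptor VEGFR3 of lymphatic and sprouting endothelium, stood at 4.17 ± 1.14 CPM in responders and 6.33 ± 0.882 in non-responders (log2 fold change -0.60, SE 0.18, edgeR adjusted p = 0.580), with 4 responders below every non-responder, as at least 4 were for 3.67% of all features. Calcrl, the adrenomedullin receptor, had 8.80, 8.50, 9.10, 8.53 and 8.25 CPM in non-responders 1, 2, 3, 6 and 7. It had 7.57, 7.81, 7.35, 7.12 and 7.51 CPM in responders 5, 9, 10, 11 and 12. Here responder 5 lay with the other responders and the groups did not overlap, all 5 responders being below every non-responder as for 0.590% of all features (log2 fold change -0.21, SE 0.07, edgeR adjusted p = 0.580). Notch4, an endothelial Notch receptor, stood at 18.0 ± 3.22 and 21.2 ± 1.73 CPM (log2 fold change -0.24, SE 0.11). Nrp2, the most abundant receptor of the list, had a value of 0.05 (SE 0.05).

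Of 22 endothelial transcription factors 20 passed the filter, 13 had a lower and 7 a higher mean, and the median log2 fold change was -0.06, or -0.03 without non-responder 3, responder 9 or responder 12. None passed the adjusted threshold and only Sox18, 1 of 20, had an unadjusted p under 0.05 (4.0% of all features on the lower side), at 5.30 ± 1.24 CPM in responders and 7.08 ± 1.49 in non-responders (log2 fold change -0.42, SE 0.18, edgeR adjusted p = 0.591). Its relative Sox17 and the Notch target Hey1 had values of -0.26 (SE 0.14) and -0.30 (SE 0.16). Ets1, the most abundant factor of the list, had a value of -0.06 (SE 0.06).

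Of the 6 pathway lists, junction and basement membrane genes had the lowest median. Of 27 genes 25 passed the filter, 21 had a lower and 4 a higher mean in responders, and the median log2 fold change was -0.14, or -0.09 without responder 11 or without non-responder 6. None passed the adjusted threshold, and at an unadjusted p under 0.05 there were 5 of 25 on the lower side and 1, Ecscr, on the higher side, where 4.0% and 4.21% of all features stood. Without responder 5 there were 9 on the lower and 2 on the higher side, beside 6.79% and 6.85% of all features. Hspg2, the basement membrane proteoglycan perlecan and the most abundant of the list, stood at 637.8 ± 104.2 CPM in responders and 793.4 ± 73.1 in non-responders (log2 fold change -0.32, SE 0.10, edgeR adjusted p = 0.580). Col4a2, a chain of basement membrane collagen, stood at 147.7 ± 29.6 and 196.6 ± 32.0 CPM (log2 fold change -0.41, SE 0.13, edgeR adjusted p = 0.580). Its neighbor Col4a1, transcribed the other way from the same locus, had a value of -0.37 (SE 0.13), and the annotated ends of the pair overlap by a few bases. The adhesion molecule Mcam stood at 50.8 ± 5.17 and 59.0 ± 4.21 CPM (log2 fold change -0.22, SE 0.07, edgeR adjusted p = 0.580). These matrix genes are also made by fibroblasts and by sarcoma cells.

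Genes through which leukocytes enter tissue were balanced. Of 13 genes 10 passed the filter, 4 had a lower and 6 a higher mean, and the median log2 fold change was 0.02, with values from -0.01 (without responder 10) to 0.17 (without non-responder 1) when single tumors were left out. None passed the adjusted threshold and Icam1, an integrin ligand that inflammatory cytokines induce on endothelium and many other cells, had an unadjusted p under 0.05, 1 of 10 on the higher side, where 4.21% of all features stood. It stood at 27.6 ± 5.90 CPM in responders and 20.8 ± 4.38 in non-responders (log2 fold change 0.41, SE 0.16, edgeR adjusted p = 0.587), and the groups overlapped. Sele, the E-selectin of activated endothelium, was at 0.955 ± 0.236 and 0.690 ± 0.193 CPM (log2 fold change 0.46, SE 0.25, edgeR adjusted p = 0.658). Vcam1 and Stab1, the most abundant of the list, had values of 0.12 (SE 0.09) and -0.01 (SE 0.14).

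Genes of anticoagulant surface and vessel tone were also balanced, with all 14 past the filter, 7 lower and 7 higher, and a median log2 fold change of 0.01. None passed the adjusted threshold. Nos3, the endothelial nitric oxide synthase, was the only 1 of the 14 with an unadjusted p under 0.05 (4.0% of all features on the lower side), at 7.72 ± 1.54 CPM in responders and 9.96 ± 1.27 in non-responders (log2 fold change -0.37, SE 0.13, edgeR adjusted p = 0.580). Atg9b overlaps Nos3 on the opposite strand. Without responder 5, 3 of the 14 had an unadjusted p under 0.05 on the lower side, where 6.79% of all features stood. Ece1, Gpihbp1 and the abundant caveolin gene Cav1 had values of -0.11 (SE 0.07), -0.20 (SE 0.13) and -0.02 (SE 0.05).

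**Figure D4:**
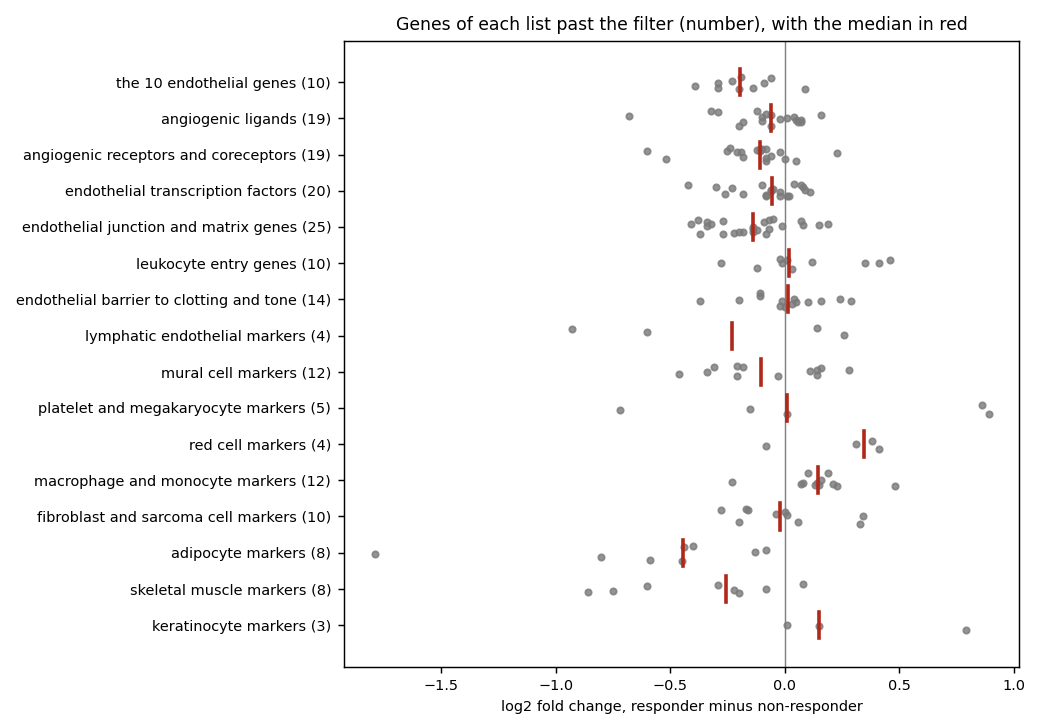
Log2 fold change (responder minus non-responder, horizontal axis) of every gene past the filter in the 10 endothelial genes, 6 pathway lists and 9 cell type lists, with the number of genes in brackets and the median as a red bar. The median is -0.20 for the 10 endothelial genes, -0.14 for junction and matrix genes, -0.44 for adipocyte markers and 0.14 for macrophage and monocyte markers, and the adipocyte median ran from -0.95 to -0.18 when single tumors were left out.

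Markers of other cells in the tumor were counted in the same fit, and none of their genes passed the adjusted threshold. Their counts at an unadjusted p under 0.05 are to be read against 4.0% of all features on the lower side and 4.21% on the higher side. Mural cell markers, which label the pericytes and smooth muscle around vessels, had 12 of 13 genes past the filter, 7 lower and 5 higher, 2 of them lower at an unadjusted p under 0.05 (Notch3 and Abcc9), with a median of -0.10 (-0.05 without non-responder 2 and -0.06 without responder 10). The most abundant, Pdgfrb, stood at 120.3 ± 16.7 CPM in responders and 139.6 ± 17.6 in non-responders. Of 7 lymphatic markers 4 passed the filter, with 2 lower and 2 higher (median -0.23, or -0.37 without non-responder 2), and at an unadjusted p under 0.05 Flt4 was lower and Pdpn higher. Without responder 5, 2 were lower and 1 higher at that threshold, beside 6.79% and 6.85% of all features. Prox1, the factor that defines lymphatic endothelium, had at most 6 counts in any tumor, and Pdpn, the most abundant, is shared with fibroblasts.

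Blood cell markers had higher sums in responders, though for the platelet list this came through Pf4. Of 12 macrophage and monocyte markers 1 was lower and 11 were higher in responders, with a median of 0.14 (0.09 without responder 11) and 1 gene in each direction at an unadjusted p under 0.05 (Ccr2 lower, Ly6c2 higher). Without responder 5, 0 of these markers were lower and 4 higher at that threshold, beside 6.79% and 6.85% of all features. Their sum was 2928 ± 310 CPM in responders and 2688 ± 296 in non-responders, with Lyz2 the most abundant. Platelet and megakaryocyte markers summed to 51.8 ± 15.4 and 34.9 ± 11.6 CPM, led by Pf4, and 5 of 8 passed the filter with 2 lower and 3 higher (median 0.01). Of these, Gp1bb was lower and Pf4 higher at an unadjusted p under 0.05. Pf4 alone stood at 40.6 ± 15.0 CPM in responders and 22.4 ± 10.5 in non-responders, a larger gap than that of the sums. Red cell markers summed to 22.5 ± 4.51 and 17.9 ± 4.88 CPM, led by Hba-a2, with 1 lower and 3 higher of the 4 of 7 past the filter (median 0.35, from 0.19 without responder 12 to 0.54 without non-responder 2, Hba-a1 higher at an unadjusted p under 0.05). The part of these cells in the values of Pecam1, Flt1 and Vwf was not tested.

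Markers of fat and muscle, which lie around a subcutaneous tumor, also had lower means in responders. All 8 adipocyte markers had lower means in responders (median -0.44, 2 at an unadjusted p under 0.05), with a median of -0.95 without responder 10, -0.23 without responder 11 and -0.18 without non-responder 7. They summed to 34.7 ± 10.7 and 42.1 ± 15.0 CPM, with Fabp4 the most abundant. Of 8 skeletal muscle markers 7 were lower (median -0.25, 2 at an unadjusted p under 0.05), with medians from -0.57 (without responder 11) to -0.16 (without responder 9 or non-responder 6) when single tumors were left out. They summed to 127.3 ± 54.5 and 169.1 ± 49.3 CPM, with Acta1 the most abundant. Fibroblast and sarcoma markers had 6 lower and 4 higher (median -0.02), with the collagens Col1a1 and Col3a1 lower at an unadjusted p under 0.05. Of 8 keratinocyte markers 3 passed the filter, with 0 lower and 3 higher (median 0.15, or 0.25 without responder 9), with Krt10 the most abundant over all 10 tumors, and Trp63 was higher at an unadjusted p under 0.05. The part of neighboring fat and muscle, which carry their own vessels, in the lower endothelial values was not tested.

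Ratios between genes of the same tumor do not depend on library size, and 5 were compared with exact two-sided permutation tests, for which 5 against 5 tumors allow no p below 0.00794. The log2 ratio of Flt1 to Kdr was 0.75 ± 0.12 in responders and 0.80 ± 0.16 in non-responders (exact permutation p = 0.619, adjusted over the 5 ratios 0.619). Tek to Tie1 was -1.67 ± 0.16 and -1.76 ± 0.11 (exact permutation p = 0.317, adjusted 0.397), and the difference of 0.09 was 0.03 without responder 10 and 0.04 without non-responder 6. Both differences were smaller than the SD within either group. Angpt2 to Angpt1, the balance of antagonist and agonist at TIE2, was -0.34 ± 0.15 and -0.52 ± 0.16 (exact permutation p = 0.0714, adjusted 0.179). Sele to Cdh5, E-selectin per unit of the junction gene, was -4.83 ± 0.48 and -5.52 ± 0.24, higher in responders by 0.69 (exact permutation p = 0.0238, adjusted 0.119), though Sele had only 10 to 38 counts per tumor. Selp to Cdh5 was -4.66 ± 0.35 and -5.15 ± 0.60 (exact permutation p = 0.151, adjusted 0.251). The lower Cdh5 mean in responders (log2 fold change -0.39) raises both of these ratios. Selp itself stood at 1.13 ± 0.153 CPM in responders and 1.13 ± 0.681 in non-responders, and Sele had a log2 fold change of 0.46 (SE 0.25).

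How far the genes vary together was measured against Cdh5 as log2(CPM + 1) over the 10 tumors. No feature of 15766 passed an adjusted p under 0.05 by permutation with either coefficient, and 2412 had an unadjusted p under 0.05 for Pearson's r. The 100000 resamples limit how small a permutation p, and its adjusted value over so many features, can be. For Pxdn, the most alike feature, these were 2e-05 and 0.079, so the count of 0 rests partly on that limit. Of the endothelial genes, Tie1 followed Cdh5 most closely, with r = 0.961 and rho = 0.927 (permutation adjusted p = 0.083 and 0.30). Without tumors 11 and 2, the farthest from the median of Cdh5, r was 0.920, and within groups it was 0.930. Esam (r = 0.894, rho = 0.867), Flt1 (0.837 and 0.782) and Kdr (0.812 and 0.745) came next, with permutation adjusted p of 0.10, 0.12 and 0.14 for r. Tek had an r of 0.742 and Emcn of 0.721, and within groups 0.672 and 0.631. Without tumors 11 and 2, which also narrows the range of Cdh5, they had 0.384 and 0.123. The size of these 2 relations thus depends on those tumors. Eng had 0.538, Vwf 0.461 and Pecam1 -0.543, with permutation adjusted p of 0.46, 0.55 and 0.45. Without tumors 11 and 2, Eng had 0.718 and Vwf -0.554.

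The features most like Cdh5 outside the 10 genes, by Pearson's r over 10 tumors among named features of at least 1 CPM, were Pxdn (0.970), Col4a2 (0.966), Col4a1 (0.965), Dchs1 (0.962), Nckap5l (0.945), Col6a1 (0.944), Kirrel (0.939), Rin2 (0.937), Slc9a3r2 (0.937) and Sema3f (0.935). All 10 had lower means in responders, a direction that the choice by likeness to Cdh5 largely fixes, with Pxdn at 162.2 and 177.4 CPM (log2 fold change -0.13, SE 0.06) and Col4a2 as given above. Within groups, Pxdn and Col4a2 still had r of 0.958 and 0.940 with Cdh5.

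**Figure D5:**
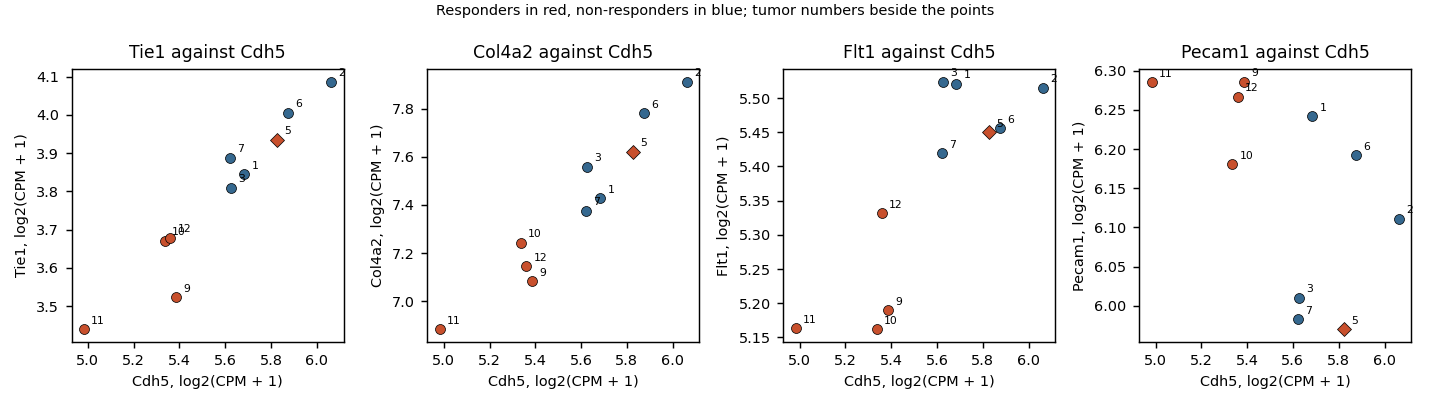
Tie1, Col4a2, Flt1 and Pecam1 against Cdh5, each as log2(CPM + 1), with 1 point per tumor numbered as in the labels (non-responders blue, responders red, responder 5 as a diamond). The Pearson r is 0.961 for Tie1, 0.966 for Col4a2, 0.837 for Flt1 and -0.543 for Pecam1, and responder 5 falls among the non-responders on the Cdh5 axis.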

How the data were processed

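RNA from 10 untreated tumor pieces was analysed. The authors estimated transcript abundance with kallisto and summed it to genes with tximport on GRCm38, and they deposited estimated counts per gene, normalized for neither depth nor length. The annotation release and strand setting are not given in the sources used here. Of 36009 rows, 9580 had no gene name and held 1.31% of counts. Rows sharing a name were summed and the estimated counts rounded.

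Features above 0.366 CPM in at least 3 tumors were kept (15767), and the groups were compared with edgeR 4.0.16 in R 4.3.3 (quasi-likelihood test, TMM, Benjamini-Hochberg adjustment over all features). The SE of a fold change was taken as its log2 value divided by the root of its F value. The common biological coefficient of variation was 10.4%. No pair of tumors agreed within sampling noise (45 pairs, smallest chi-square per gene 5.18). The fit was first tested on simulated data. Ratios used a pseudocount of 0.5, and likeness to Cdh5 used a pseudocount of 1 and 100000 resamples. Labels of the groups come from the response given for each mouse.

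The 10 genes, the 15 other lists (written by hand from general knowledge, 195 of 196 entries found) and the tests were chosen with earlier results of these data known. Of each pathway list the most abundant gene and the 3 with the smallest p are named, with Vegfa, Angpt1, Angpt2 and Dll4. Of each cell type list the most abundant gene and markers at 0 are named, and the 10 named features of at least 1 CPM most like Cdh5. Genes named outside these rules (such as Col6a2, Ecscr, Ly6c2, Gp1bb and Trp63) were chosen after their values were seen. Alternatives were DESeq2 1.42.0, limma 3.58.1, other normalizations, filters and pseudocounts, and leaving out each tumor. Coordinates, exon lengths and overlaps are from GENCODE on GRCm38, promoters from RefSeq on GRCm38.p6, with no promoter matched for Pecam1, Cdh5, Vwf and Esam. Counting error adds to the spread for genes of few counts, and assignment error between overlapping or similar genes was not measured. Figures were drawn with matplotlib 3.10.9 in Python 3.11.15, with numpy 2.4.6, scipy 1.17.1 and pandas 2.3.3. Results for some marker genes are not reported here.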

Additional observations from a re-analysis of the deposited data

Results flagged for a closer look

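Among 62 groups of 5 values examined for a single tumor far from the rest (genes, list sums and ratios within each group of mice), 3 had a gap above Dixon's 95% critical value of 0.71 for 5 samples, and chance gives about 3.1. Vwf stood at 8.57 CPM in non-responder 2, where the other non-responders had 3.56 to 4.98 CPM. The summed platelet and megakaryocyte markers stood at 55.0 CPM in non-responder 1, where the other non-responders had 25.7 to 33.7 CPM. The log2 ratio of Sele to Cdh5 was -5.12 in non-responder 1, where the other non-responders had -5.73 to -5.57.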

How the results depend on the processing

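No endothelial gene passed the adjusted threshold under any of 18 alternatives (other normalizations, filters and tests, and leaving out each tumor in turn), and 9 of the 10 kept the sign of their difference in all of them. The exception was Vwf, whose log2 fold change ran from -0.25 to 0.17 when single tumors were left out (0.17 without non-responder 2, 0.07 without responder 11). Cdh5 ran from -0.52 to -0.29 and Flt1 from -0.28 to -0.20 over the alternatives, with smallest edgeR adjusted p of 0.0779 and 0.0738, both without responder 5. The median over the 10 genes ran from -0.25 to -0.12. At an unadjusted p under 0.05, 4 or 5 of the 10 genes were lower in responders under each alternative. The share of all features on that side ran from 2.36% (without responder 9) to 6.79% (without responder 5). Flt1, Esam, Cdh5 and Tie1 were among the lower genes every time, and Kdr was missing without non-responder 1 or 6 or responder 11 or 12.

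The number of features called was 1 by DESeq2's Wald test, 0 to 9 when single tumors were left out (9 without responder 5) and 0 under the others. The difference of the Flt1 to Kdr log2 ratio ran from -0.10 to 0.01 when single tumors were left out, with 0.01 without non-responder 3. Leaving out a tumor also leaves fewer samples, and otherwise the cause was not tested. Divided by the longest transcript, 8 of the 10 levels per length moved beyond their SD. The median of adipocyte markers was -0.95 without responder 10, and that of leukocyte entry genes was 0.17 without non-responder 1. For Tek, Vwf and Sele, with 10 to 240 counts per tumor, counting error limits the precision. No paired analysis was possible because the tumor numbers are unique across the groups.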
